A study of Phyllostachys nigra with 21 samples.

Results

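In the culms of black bamboo (Phyllostachys nigra, Pn), 6 decarboxylase genes were followed across 7 groups of RNA-seq libraries. PH02Gene42909, PH02Gene31517, PH02Gene26874, PH02Gene26873, and PH02Gene42906 are described in the deposited annotation as aromatic-L-amino-acid decarboxylase. PH02Gene31518 was added because it lies beside PH02Gene31517 on scaffold 18, although its description, tyrosine/DOPA decarboxylase 2-like, differs. The 6 genes are part of a table of 42460 genes, of which 29913 were tested because 3 or more libraries had an FPKM of 1 or above. All 7 genes with the aromatic-L-amino-acid decarboxylase description were considered, and the 5 that passed this filter are among the 6. The members were chosen by their descriptions and position with their FPKM and fold changes between 4 °C and 25 °C already known, so that difference is given below as values without a test.

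Aromatic amino acid decarboxylases remove the carboxyl group from tryptophan, tyrosine, or dihydroxyphenylalanine. In plants, the enzymes that act on tryptophan are called tryptophan decarboxylases, and their product tryptamine is hydroxylated to serotonin. In rice, serotonin is also joined to hydroxycinnamic acids or passed on to melatonin. Tyrosine decarboxylases belong to the same protein family, so a description alone does not settle which amino acid an enzyme uses, and none of the 6 enzymes was assayed here.

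Each group held 3 libraries. CK culms were taken at the start, LT1d, LT15d, and LT25d culms after 1, 15, and 25 days at 4 °C, and RT1d, RT15d, and RT25d culms after the same times at 25 °C. According to the methods of the study, potted plants raised in a greenhouse from field rhizomes were moved to growth chambers for both temperatures, so temperature, time, and the move itself cannot be told apart in a comparison with CK. The labels do not tie a library to a plant, and the p-values therefore measure only the spread between labelled samples, which may be technical.

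Total deposited counts ran from 33957497 to 50338658 over the 21 libraries. In CK, RT1d, RT15d, and RT25d every total exceeded the number of valid reads that the study lists for the library. A count therefore does not stand for a single read or read pair, and how counts were formed was not tested. Replicates were unusually alike in LT15d, LT25d, and RT15d, where genes above 5000 counts had a median coefficient of variation of 2.32% to 2.81%, against 7.94% to 24.2% in the other groups. RT25d spread widely. Among the 196 genes above a mean of 20 FPKM whose RT25d replicates 1 and 3 differed over 4-fold, replicate 2 lay between them in 196, and in 192 it was within 20% of a single fixed mixture with a weight of 0.466 on replicate 1. LT1d replicate 3 lay likewise between its partners in 34 of 34 genes (weight 0.476). What produced these intermediate libraries was not tested, and counts of calls are also given without them. Transcripts of cellulose synthase A (19.2 to 43.0 FPKM, summed over its genes) and cinnamyl alcohol dehydrogenase (229 to 1342 FPKM) were present in every library, those of caffeic acid O-methyltransferase ran from 1.53 to 42.1 FPKM, and the small subunit of Rubisco, a leaf and green stem enzyme, was low (0.220 to 6.07 FPKM). Of the markers of other organs, prolamin and oleosin stayed at or below 0.0980 FPKM and pollen allergens at or below 1.80 FPKM. Genes described as glutelin, a seed storage protein, nevertheless summed to 50.997 to 262 FPKM.

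The 6 genes lay in 2 clusters. On scaffold 18 of the moso bamboo genome (P. edulis) used by the authors, 5 consecutive annotated genes carried the orthology term K01593 of aromatic amino acid decarboxylases over 176.727 kb, namely PH02Gene31517 (start 15679858, end 15687862, plus strand), PH02Gene31518 (15719612 to 15726594, plus), PH02Gene26872, PH02Gene26873 (15838860 to 15840707, plus), and PH02Gene26874 (15854724 to 15856584, minus). On scaffold 22, 3 such genes lay within 187.175 kb, with PH02Gene12605 first, then PH02Gene42906 (53843595 to 53845452, plus), and PH02Gene42909 (54002343 to 54004248, minus) at the far end. The annotated spans of PH02Gene31517 (8005 bp) and PH02Gene31518 (6983 bp) exceeded those of the other listed genes (1848 to 1906 bp). Both clusters were bordered by the same kinds of genes. A terpene synthase lay on one side, and a vesicle-associated protein 4-2-like gene followed by an external alternative NAD(P)H-ubiquinone oxidoreductase on the other, in opposite orders along the scaffolds.

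**Figure D1:**
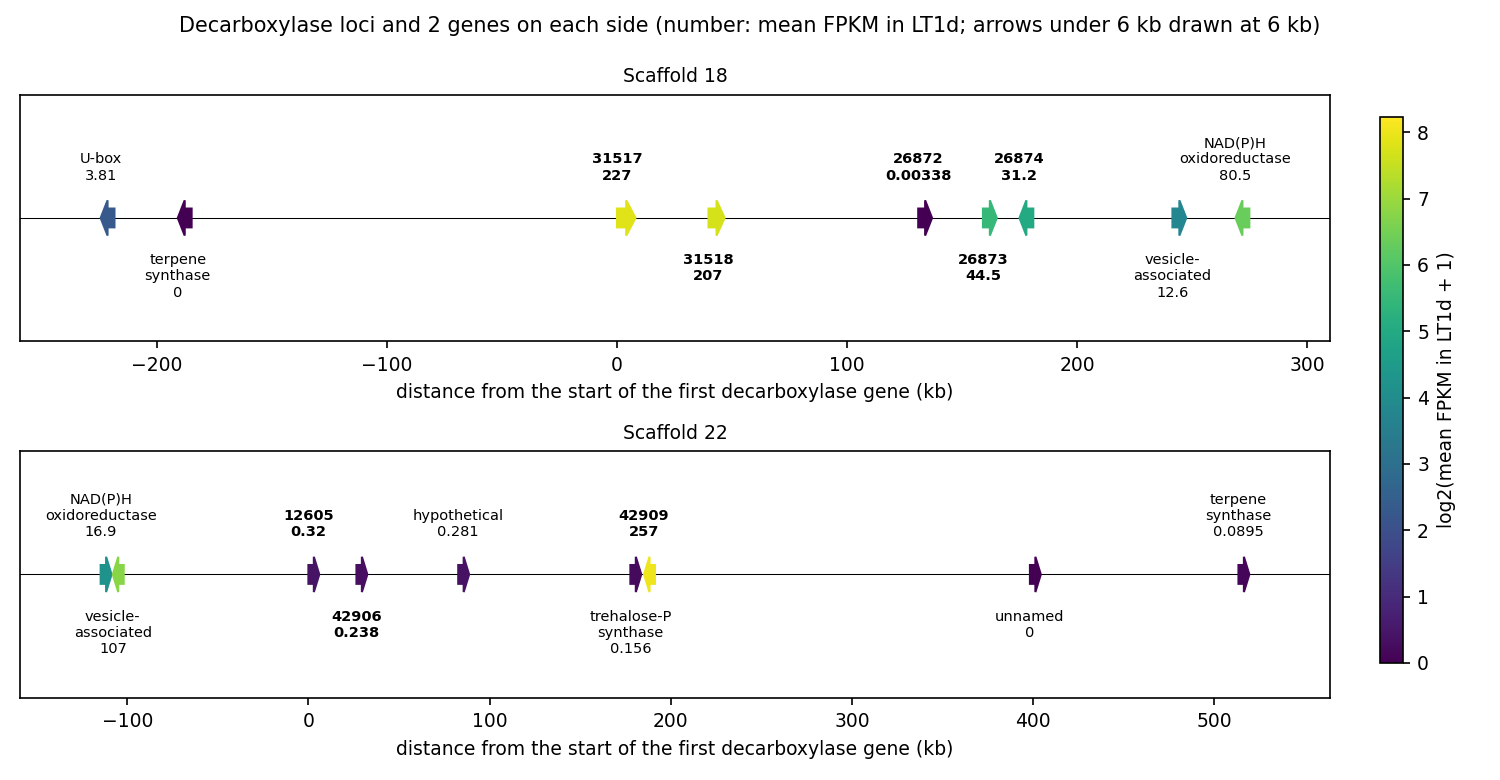
Genes of the scaffold 18 and scaffold 22 clusters with 2 neighbours on each side, plotted by distance in kb from the first decarboxylase gene. Arrows point along the strand, numbers and colours give the mean FPKM in LT1d (n = 3), and decarboxylase genes are in bold. PH02Gene31517 (227), PH02Gene31518 (207), and PH02Gene42909 (257) stand out beside PH02Gene26872 (0.00338), PH02Gene12605 (0.320), and PH02Gene42906 (0.238) of the same clusters.

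Levels within a cluster were far from uniform. PH02Gene26872, between PH02Gene31518 and PH02Gene26873, had no more than 1 count in any library. PH02Gene12605 stayed between 0 and 1.04 FPKM, and both genes missed the filter. PH02Gene42908, a trehalose-phosphate synthase gene whose end lies 4.077 kb from PH02Gene42909, had a mean of 0.156 FPKM in LT1d while PH02Gene42909 had 257. Beyond the other end of the scaffold 18 cluster, the vesicle-associated protein gene PH02Gene26875 was lower in LT1d than in CK (log2 fold change -2.18 ± 0.18 SE, edgeR adjusted p = 2.95e-08), and next to it the oxidoreductase gene PH02Gene26876, of the external respiratory pathway of mitochondria, was higher (log2 fold change 1.21 ± 0.30 SE, edgeR adjusted p = 0.00242).

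All 6 genes had their lowest mean in CK, and 5 of them had their highest mean in LT1d. The exception was PH02Gene42906, which never exceeded 2.04 FPKM and was highest at 25 °C. Summed over the 6 genes, the level was 4.50 ± 0.228 FPKM in CK (SD, n = 3), 767 ± 55.4 in LT1d, 145 ± 2.60 in LT15d, and 66.4 ± 1.11 in LT25d. At 25 °C it was 37.0 ± 15.0 FPKM in RT1d, 56.5 ± 1.497 in RT15d, and 98.1 ± 90.5 in RT25d. The 3 LT groups stepped down without overlap, whereas the RT25d libraries (190, 94.8, and 9.29 FPKM) covered the range of every other group but CK and LT1d. The chlorophyll a-b binding protein genes of the light-harvesting antenna, a mark of green tissue, moved at the same time. They summed to 407 to 697 FPKM in CK and 5.36 to 12.98 in LT1d, and their part in the decarboxylase result was not tested.

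**Figure D2:**
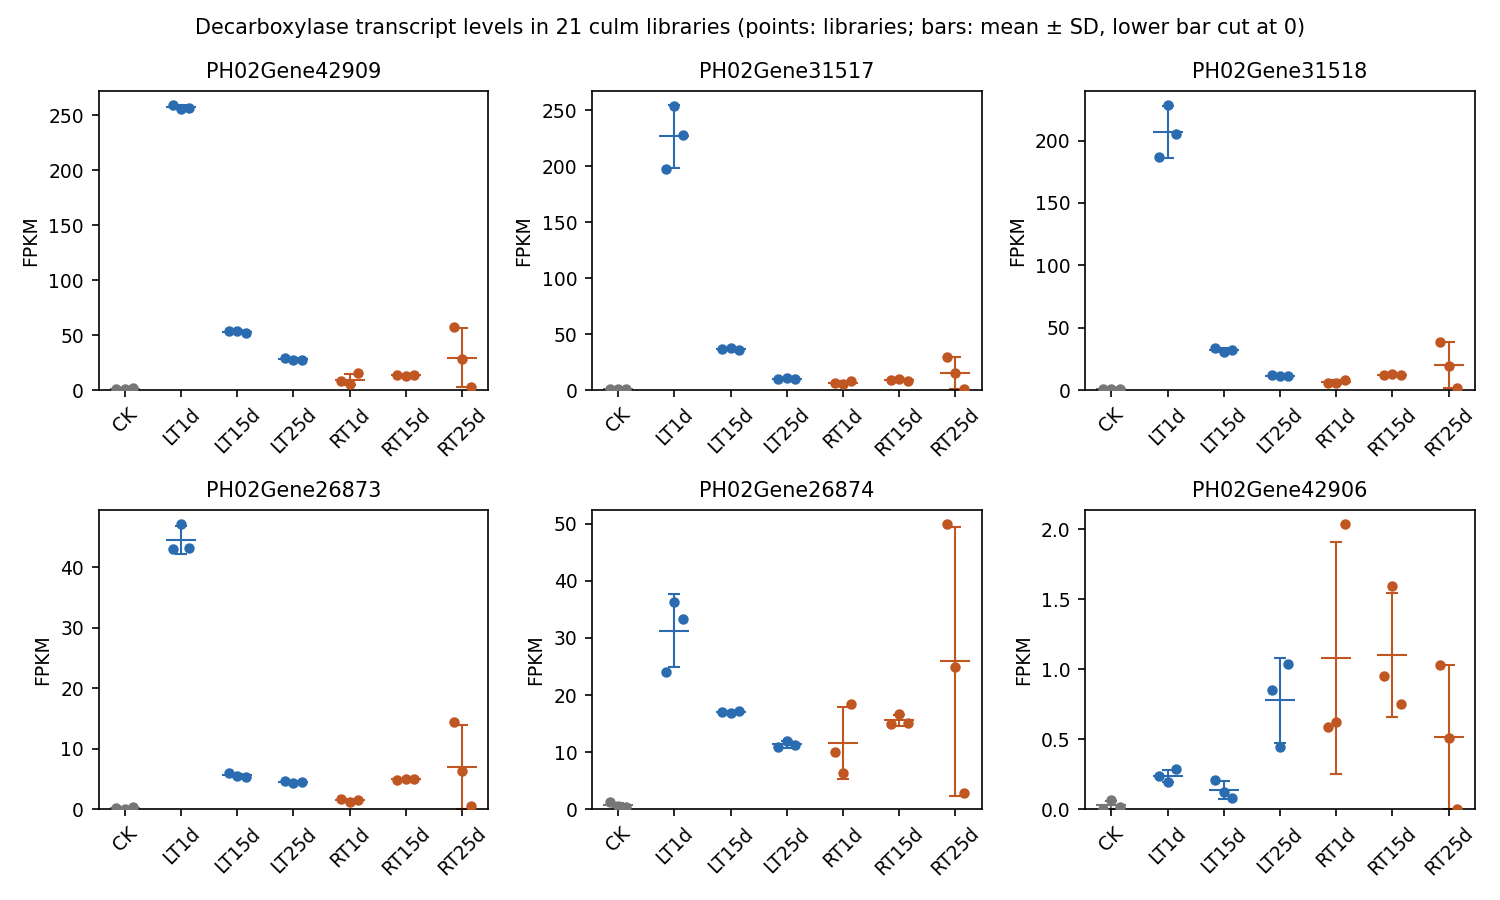
Transcript level (FPKM) of each gene in the 7 groups, with a panel and a vertical scale for each gene. Points are libraries, and bars give the mean ± SD (n = 3, lower bar ending at 0). In 5 panels the LT1d mean is the highest, and RT25d has a high, a middle, and a low library in each panel.

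PH02Gene42909 was the most abundant member in LT1d, LT15d, and LT25d. It measured 1.26, 1.14, and 1.66 FPKM in the CK libraries and 259, 255, and 257 FPKM in those of LT1d. The later LT libraries held 53.8, 54.1, and 51.8 FPKM (LT15d) and 29.1, 27.4, and 27.2 FPKM (LT25d). At 25 °C the values were 8.13, 5.35, and 15.2 FPKM in RT1d, 13.4, 12.8, and 13.9 FPKM in RT15d, and 57.0, 28.3, and 2.99 FPKM in RT25d. Every treated library thus lay above every CK library, and the LT1d libraries lay above all others. In order of means the groups ran LT1d, LT15d, RT25d, LT25d, RT15d, RT1d, and CK, and RT25d overlapped both LT15d and LT25d, as RT15d did RT1d. The LT1d mean was 190 times the CK mean, with an edgeR log2 fold change of 7.75 ± 0.77 (SE, adjusted p = 3.07e-07).

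PH02Gene31517 and its neighbour PH02Gene31518 moved almost as a unit. PH02Gene31517 measured 0.991, 1.27, and 0.968 FPKM in CK, 198, 254, and 228 FPKM in LT1d, 36.9, 37.8, and 36.2 FPKM in LT15d, and 10.1, 10.4, and 9.97 FPKM in LT25d. It measured 6.19, 5.84, and 7.98 FPKM in RT1d, 9.20, 9.52, and 8.40 FPKM in RT15d, and 29.3, 15.5, and 1.32 FPKM in RT25d. Only RT25d overlapped its neighbour in the order of means (LT25d), and otherwise each group stood clear of the next. PH02Gene31518 measured 0.989, 1.14, and 1.04 FPKM in CK, 187, 229, and 205 FPKM in LT1d, 33.7, 30.9, and 31.9 FPKM in LT15d, and 11.9, 11.5, and 11.6 FPKM in LT25d. Its values were 5.88, 5.58, and 8.35 FPKM in RT1d, 12.3, 12.5, and 12.5 FPKM in RT15d, and 38.6, 19.2, and 1.63 FPKM in RT25d. Here RT25d overlapped LT15d and RT15d, its neighbours in the order. Against CK, LT1d was higher by a log2 fold change of 7.88 ± 0.76 (SE, edgeR adjusted p = 2.03e-07) for PH02Gene31517 and of 7.79 ± 0.77 (adjusted p = 2.68e-07) for PH02Gene31518.

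The description of PH02Gene31518 as a tyrosine/DOPA decarboxylase, from a match in Cinnamomum micranthum, did not set its level apart. Pearson's r of log2(FPKM + 1) between it and PH02Gene31517 was 0.995 over the 21 libraries (Spearman's rho 0.947), given as a description since libraries of a group share their condition. The ratio of the pair still differed among groups. PH02Gene31518 was at 0.870 ± 0.0496 (SD, n = 3) of the PH02Gene31517 level in LT15d and 0.914 ± 0.0260 in LT1d, but at 1.38 ± 0.0919 in RT15d and 1.26 ± 0.0470 in RT25d. These 2 pairs of groups did not overlap, but the ratio did not split by temperature, with 1.15 ± 0.0409 in LT25d above 0.984 ± 0.0544 in RT1d and 0.987 ± 0.0893 in CK. The sources used here do not say how reads that map to both genes were shared out, so similar copies may have lent each other counts, and this holds for every member of the clusters.

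PH02Gene26873 had a similar course at a lower level. It measured 0.286, 0.0881, and 0.390 FPKM in CK, 43.1, 47.2, and 43.3 FPKM in LT1d, 5.96, 5.52, and 5.32 FPKM in LT15d, and 4.75, 4.39, and 4.50 FPKM in LT25d. At 25 °C it stood at 1.67, 1.13, and 1.62 FPKM in RT1d, 4.81, 5.04, and 5.01 FPKM in RT15d, and 14.4, 6.27, and 0.526 FPKM in RT25d. LT1d was clear of all other groups, LT15d, RT15d, and LT25d lay close together without overlap, and RT25d reached from below RT1d to above LT15d. Its LT1d mean was 175 times that of CK (log2 fold change 7.62 ± 0.82 SE, edgeR adjusted p = 6.94e-07).

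PH02Gene26874, at the end of the scaffold 18 cluster and on the opposite strand, had the smallest difference between temperatures on Day 1 among the 5 abundant members. It measured 1.23, 0.618, and 0.366 FPKM in CK, 24.1, 36.4, and 33.2 FPKM in LT1d, 17.1, 16.8, and 17.2 FPKM in LT15d, and 10.9, 11.98, and 11.2 FPKM in LT25d. The RT1d libraries held 10.1, 6.28, and 18.5 FPKM, those of RT15d 14.9, 16.7, and 15.1 FPKM, and those of RT25d 49.9, 24.9, and 2.81 FPKM. All treated libraries lay above CK, while LT1d overlapped RT25d, and RT1d overlapped LT25d, RT15d, and LT15d. Its LT1d mean was 42.2 times the CK mean (log2 fold change 5.61 ± 0.74 SE, edgeR adjusted p = 6.83e-06), and its highest single library was RT25d replicate 1.

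PH02Gene42906 was a low gene with a different order. The CK libraries had 0, 6, and 2 counts (0, 0.0652, and 0.0201 FPKM), and those of LT1d 22, 13, and 21 counts (0.235, 0.194, and 0.286 FPKM). Levels were 0.213, 0.120, and 0.0820 FPKM in LT15d and 0.854, 0.446, and 1.04 FPKM in LT25d. They reached 0.585, 0.625, and 2.04 FPKM in RT1d, 0.954, 1.60, and 0.749 FPKM in RT15d, and 1.03, 0.508, and 0 FPKM in RT25d. The 2 libraries at 0 were CK replicate 1 and RT25d replicate 3. The gene passed the filter through 4 libraries only, none of them CK, LT1d, or LT15d, so some difference from CK was built into its being tested. Its log2 fold change against CK was 3.02 ± 1.17 in LT1d (SE, edgeR adjusted p = 0.0351) and 4.66 ± 1.15 in RT1d (adjusted p = 0.00360), both resting on the few counts of CK. The former call was lost without CK replicate 1 (adjusted p = 0.106), without CK replicate 3 (0.0914), and without LT1d replicate 1 (0.0547) or 3 (0.0728), and with limma on log2(FPKM + 1) (adjusted p = 0.366), where the change was 0.27.

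The comparison with CK asks whether the genes departed from their level before treatment. A gene was called where edgeR's adjusted p was at most 0.05 and the fold change at least 2. In LT1d, 6 of the 6 genes were called higher, against a background of 14.2% of all tested genes called higher. Later at 4 °C, 5 were called higher in LT15d (background 16.2%, PH02Gene42906 excepted with an adjusted p of 0.112) and 6 in LT25d (11.3%). At 25 °C, 6 were called higher in RT1d (9.19%), 6 in RT15d (10.4%), and 6 in RT25d (11%). None of the 6 was called lower in any of these comparisons, against backgrounds of lower calls at 4 °C of 19.8% (LT1d), 22.4% (LT15d), and 17% (LT25d), and at 25 °C of 13.6% on Day 1 and 15.3% on Days 15 and 25. The comparisons share the CK libraries, and their treated libraries are those known when the genes were chosen, so the counts describe the list and do not support it.

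Sizes differed more than calls. The log2 fold changes of the 5 abundant genes against CK ran from 5.61 to 7.88 in LT1d, and those of PH02Gene31517, PH02Gene31518, PH02Gene42909, and PH02Gene26873 ranked 28, 33, 37, and 40 among the 29913 tested genes. In RT1d the same 5 genes ran from 2.18 (PH02Gene26873) to 3.66 (PH02Gene26874). By LT25d the range was 2.96 (PH02Gene31517) to 4.11 (PH02Gene42909), and in RT25d it was 3.54 (PH02Gene31517) to 4.87 (PH02Gene26874). The median over all tested genes stayed between -0.11 and 0.03 in these comparisons. The call of PH02Gene26873 in RT1d (adjusted p = 0.0229) was lost without CK replicate 1 (0.0507), CK replicate 2 (0.0954), or RT1d replicate 1 (0.0541). In RT25d, PH02Gene42906 overlapped CK, and its call was lost without CK replicate 3 (0.0532) or RT25d replicate 1 (0.0859). With LT15d, LT25d, and RT15d each reduced to 1 library, fewer genes passed in RT15d against CK, among the members and among all tested genes. The log2 fold changes there were 3.06 for PH02Gene42909, 2.81 for PH02Gene31517, and 4.79 for PH02Gene42906, against 3.05, 2.80, and 4.76 in the main fit. In the fit of their 6 libraries alone, RT25d against CK had 4 calls, without PH02Gene31517 (adjusted p = 0.0507) and PH02Gene42906 (adjusted p = 0.175). limma on log2(FPKM + 1) made 4 calls in RT1d against CK, without PH02Gene26873 (adjusted p = 0.0914) and PH02Gene42906 (log2 change 0.95, under the fold threshold). Over all 29913 tested genes, the fit of 6 libraries called 4783 in RT25d against CK, and this limma fit 5250 in RT1d against CK.

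**Figure D3:**
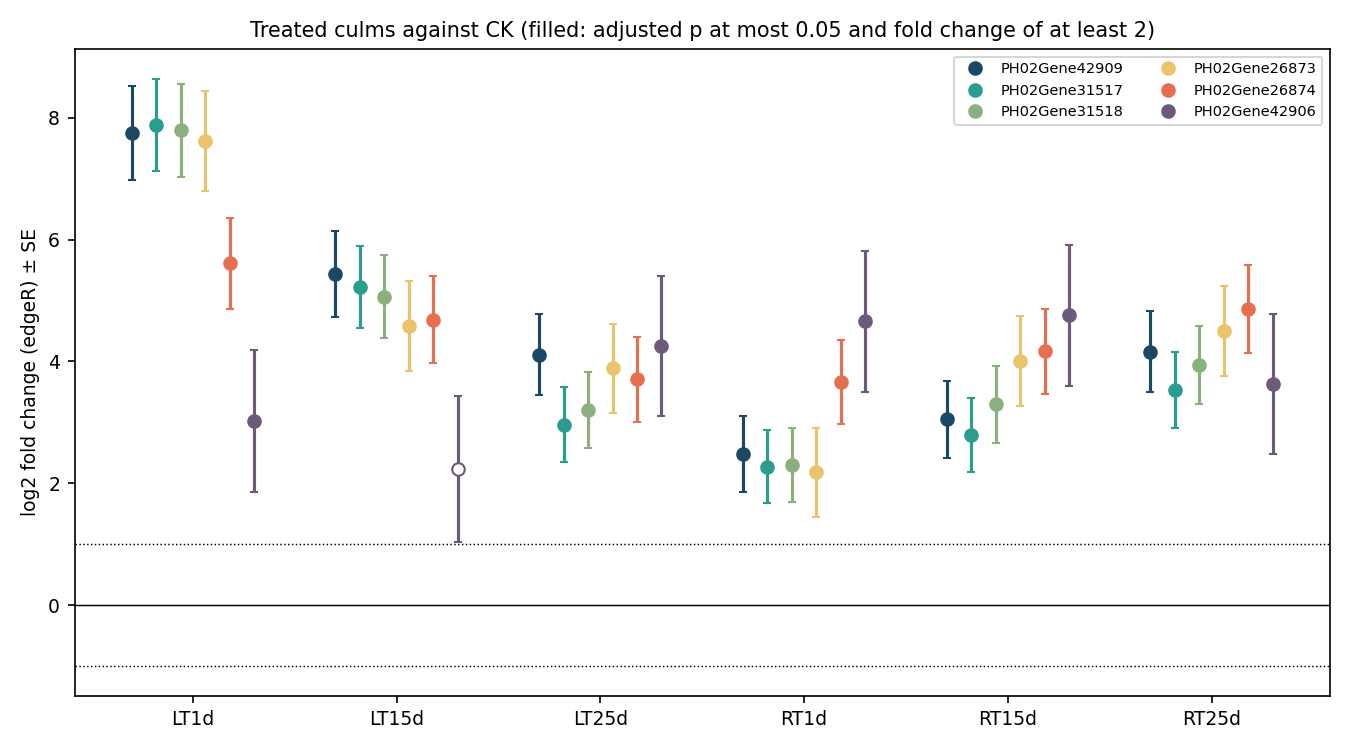
Log2 fold change against CK (edgeR, ± SE, 3 libraries per group) for the 6 genes in each treated group. Filled points passed both thresholds, and the dotted lines mark a fold change of 2. The 4 highest points of LT1d lie between 7.62 and 7.88, while in RT1d the same genes lie between 2.18 and 2.48.

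Over time at 4 °C, the levels of the 5 abundant genes were lower than on Day 1, and 4 of the 5 passed the test in the first step. The genes were chosen with the values of these libraries known, so a fall from LT1d may be partly built into the choice. The calls over time at both temperatures therefore describe the list and do not support it. From LT1d to LT15d, 4 genes were called lower (background 18.9%), by log2 fold changes of -2.32 ± 0.60 (SE) for PH02Gene42909, -2.66 ± 0.59 for PH02Gene31517, -2.73 ± 0.60 for PH02Gene31518, and -3.03 ± 0.63 for PH02Gene26873 (edgeR adjusted p between 0.000523 and 0.00285). PH02Gene26874 did not pass (-0.92 ± 0.60, adjusted p = 0.196), although its LT15d libraries all lay below those of LT1d. From LT15d to LT25d, 2 genes were called lower (background 16.2%), the neighbours PH02Gene31517 (-2.26 ± 0.58, adjusted p = 0.00316) and PH02Gene31518 (-1.86 ± 0.58, adjusted p = 0.0119). PH02Gene42909 missed the threshold (-1.33 ± 0.58, adjusted p = 0.0592), although its LT25d libraries all lay below those of LT15d. Its change passed with DESeq2 (-1.34 ± 0.55, adjusted p = 0.0274) and in the fit of these 6 libraries alone, whose replicates were unusually alike. PH02Gene42906 had its higher libraries in LT25d (log2 fold change 2.02 ± 0.96, adjusted p = 0.0826).

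Across the whole 4 °C course, LT25d against LT1d, 5 genes were called lower (background 19.5%). The log2 fold changes were -4.92 ± 0.65 (SE) for PH02Gene31517, -4.59 ± 0.66 for PH02Gene31518, -3.73 ± 0.65 for PH02Gene26873, -3.64 ± 0.63 for PH02Gene42909, and -1.90 ± 0.62 for PH02Gene26874, with edgeR adjusted p from 5.30e-06 to 0.0125. PH02Gene42906 had a mean of 0.779 FPKM in LT25d against 0.238 in LT1d without overlap (1.23 ± 0.93, adjusted p = 0.260), and passed only in the fit of these 6 libraries alone (adjusted p = 0.0358). When the 3 libraries of LT15d, of LT25d, and of RT15d were added up to a single one, fewer genes passed, among the members and among all tested genes. From LT1d to LT15d the log2 fold changes were then -2.27 for PH02Gene42909, -2.62 for PH02Gene31517, -2.69 for PH02Gene31518, and -2.99 for PH02Gene26873. From LT15d to LT25d they were -2.29 for PH02Gene31517 and -1.89 for PH02Gene31518. That fit assumes that a lone library varies like those of the other groups.

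At 25 °C the course was flatter and rested on few libraries. From RT1d to RT15d, 1 gene was called higher (background 5.08%), PH02Gene26873 (log2 fold change 1.83 ± 0.63 SE, edgeR adjusted p = 0.0396). This call was lost when any 1 of the 6 libraries compared was left out (adjusted p 0.0747 to 0.125). From RT15d to RT25d, 0 genes were called in edgeR (background 19.5% in either direction), 0 had an unadjusted p under 0.05, and DESeq2 and both limma fits also called 0. From RT1d to RT25d, 3 genes were called higher (background 8.54%), PH02Gene26873 (2.32 ± 0.63, adjusted p = 0.00863), PH02Gene42909 (1.68 ± 0.59, adjusted p = 0.0337), and PH02Gene31518 (1.64 ± 0.58, adjusted p = 0.0358), and the libraries of both groups overlapped for each. limma called 0 of the 3, and so did edgeR with only these 6 libraries.

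**Figure D4:**
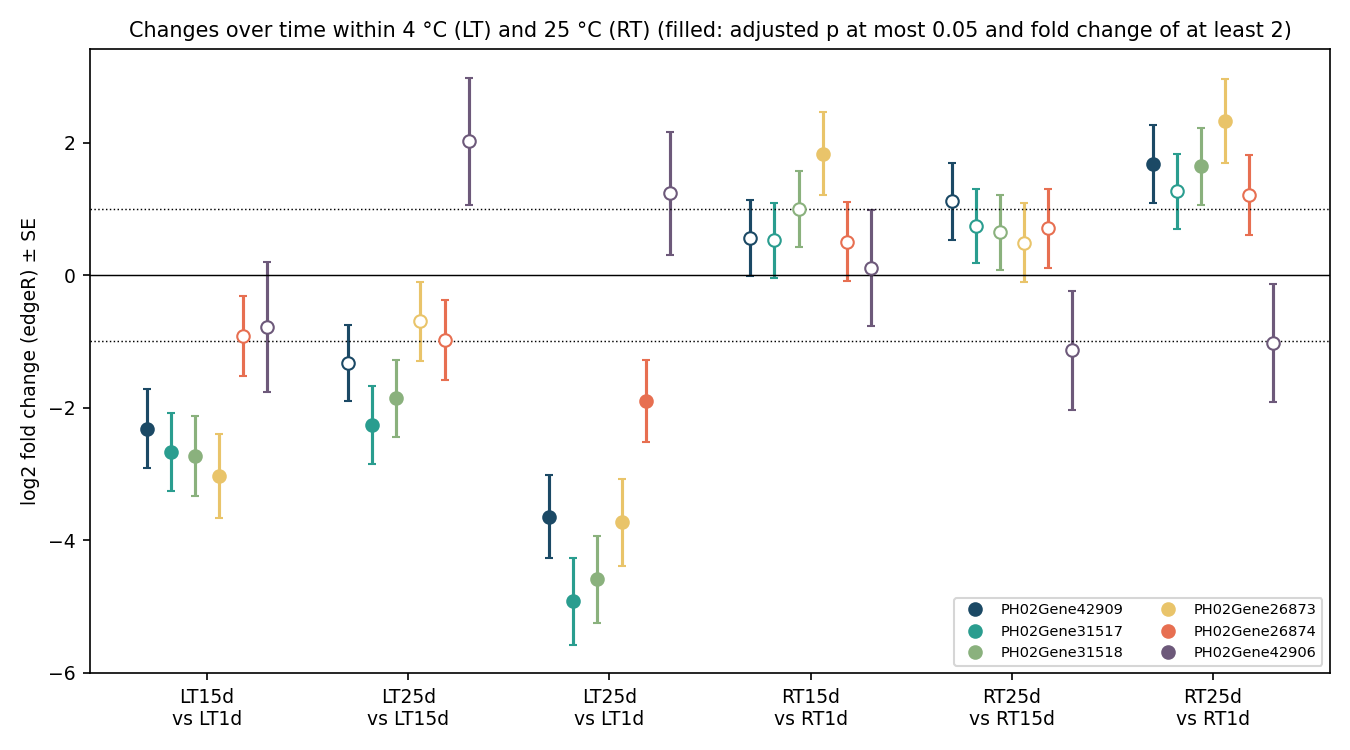
Log2 fold change between days within 4 °C (LT, 3 steps at left) and within 25 °C (RT, 3 steps at right), from edgeR with its SE and 3 libraries per group. Filled points passed both thresholds. In LT25d against LT1d the 5 filled points lie between -4.92 and -1.90, and in RT25d against RT15d no point is filled.

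These values depended on RT25d replicates 1 and 3. The level in replicate 1 was 19.1 times that in replicate 3 for PH02Gene42909, 22.1 times for PH02Gene31517, 23.6 times for PH02Gene31518, 27.3 times for PH02Gene26873, and 17.8 times for PH02Gene26874. Without replicate 3, 5 genes were called higher in RT25d than in RT15d and 5 higher than in RT1d. Of all 29913 tested genes, 6127 and 6201 were then called in either direction. Without RT25d replicate 1, 0 members were called in either comparison (5300 and 5028 of all tested genes), and PH02Gene31517, PH02Gene31518, PH02Gene26873, and PH02Gene26874 changed sign against RT15d (-0.18, -0.34, -0.62, and -0.25). In replicate 2 each gene sat near the midpoint of its partners, as PH02Gene42909 did with 28.3 FPKM against a midpoint of 30.0. With RT25d replicate 2 and LT1d replicate 3 left out together, a fit chosen after seeing the data, 1 gene was called higher in RT25d than in RT1d. That fit called 5056 of all tested genes in either direction. The chlorophyll a-b binding protein genes ran the other way in these 3 libraries, at 44.1, 90.5, and 124 FPKM in replicates 1 to 3, and the tryptophan synthase gene PH02Gene23711 ran with the decarboxylases, at 604, 317, and 75.7 FPKM.

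The difference between temperatures, which guided the choice of the genes, is given as values only. On Day 1, the LT1d mean was 26.9 times the RT1d mean for PH02Gene42909, 34.0 times for PH02Gene31517, 31.3 times for PH02Gene31518, and 30.2 times for PH02Gene26873, but 2.69 times for PH02Gene26874, and PH02Gene42906 was at 0.220 of its RT1d mean. On Day 15 the log2 fold change of LT15d against RT15d was 2.43 for PH02Gene31517, 2.39 for PH02Gene42909, 1.76 for PH02Gene31518, 0.57 for PH02Gene26873, 0.52 for PH02Gene26874, and -2.53 for PH02Gene42906. On Day 25, LT25d and RT25d overlapped for all 6 genes, with log2 fold changes between -1.16 (PH02Gene26874) and 0.62 (PH02Gene42906). In RT25d, replicate 1 was 17.8 (PH02Gene26874) to 27.3 (PH02Gene26873) times replicate 3, and PH02Gene42906 was at 0 FPKM in replicate 3. With so wide a spread in RT25d, the overlap cannot show whether the temperatures still differed on Day 25. The share of all tested genes with such an overlap is not given here.

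As the sum changed, its makeup changed too. A share here is the percent of the summed FPKM of the 6 genes, which does not depend on library scaling. PH02Gene42909 held 33.7% ± 2.71 (SD, n = 3) of the sum in LT1d and 42.0% ± 0.906 in LT25d. PH02Gene31517 went from 29.5% ± 1.57 in LT1d to 25.5% ± 0.534 in LT15d and 15.3% ± 0.410 in LT25d without overlap. PH02Gene26874 went the other way, with 4.05% ± 0.576 in LT1d, 11.8% ± 0.274 in LT15d, and 17.1% ± 1.02 in LT25d. At 25 °C it held 30.3% ± 4.62 in RT1d, 27.6% ± 1.02 in RT15d, and 27.6% ± 2.32 in RT25d. Every RT library (25.3% to 34.5%) thus lay above every LT library (3.38% to 18.1%), and on these means PH02Gene26874 was the largest single member in RT1d and RT15d. The CK libraries, with few counts, spread from 8.24% to 25.9%.

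**Figure D5:**
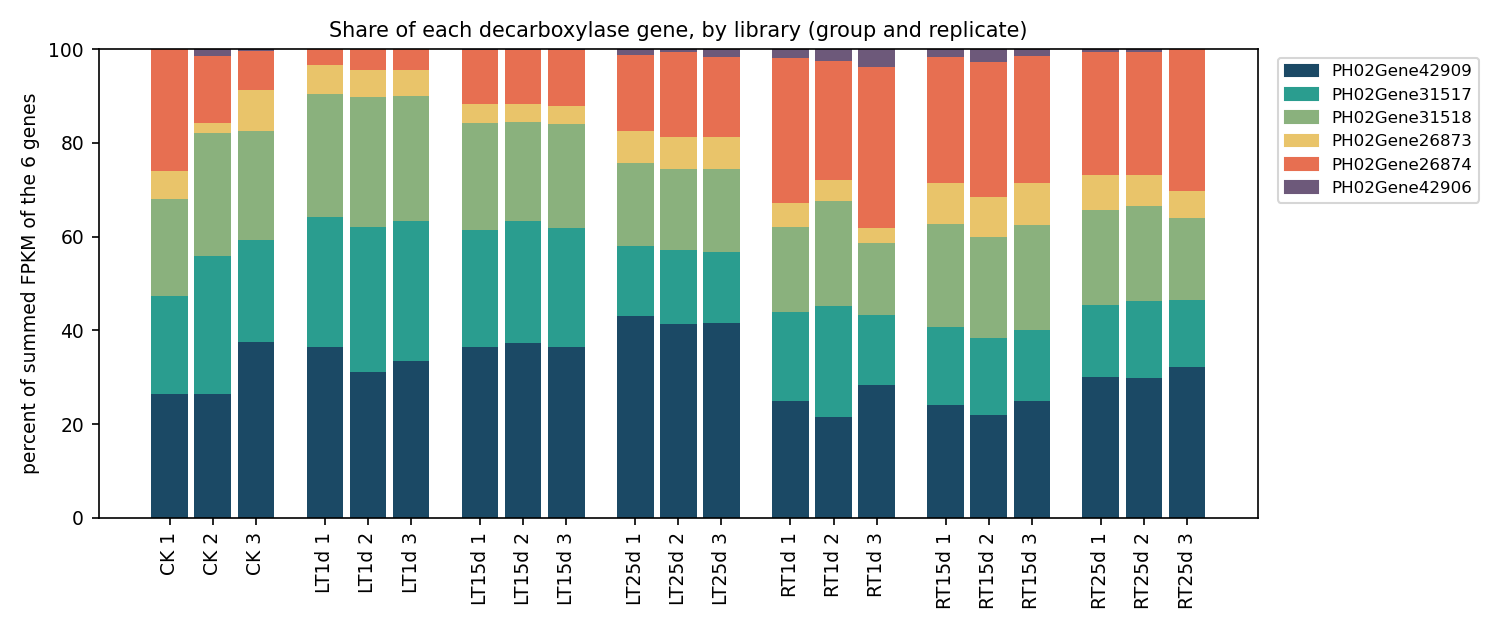
Percent of the summed FPKM of the 6 genes held by each gene, in all 21 libraries. Bars are single libraries, named by group and replicate. PH02Gene26874 takes 3.38% to 4.42% in the LT1d libraries and 25.3% to 34.5% in the RT libraries, and the RT25d libraries look alike although their sums ran from 9.29 to 190 FPKM.

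The shares of RT25d varied little between its libraries while the sum varied widely. PH02Gene42909, for instance, held 30.0%, 29.9%, and 32.2% in replicates 1 to 3. Across the 21 libraries, Pearson's r of log2(FPKM + 1) among PH02Gene42909, PH02Gene31517, PH02Gene31518, and PH02Gene26873 was 0.958 to 0.995, and that of PH02Gene26874 with these genes was 0.816 to 0.862. PH02Gene42906 reached r of only -0.01 to 0.44 with the other members. These coefficients are descriptions, since the points share groups and libraries.

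Within the wider decarboxylase family, the members took a varying part. The annotation gives the term K01593 to 22 genes, the 6 listed and 16 others, and of the 16 only PH02Gene00731 and PH02Gene11512 passed the filter. The 6 genes made up 46.5% ± 10.04 (SD, n = 3) of the summed FPKM of the 22 in CK, 80.1% ± 4.06 in RT1d, and 99.8% ± 0.0366 in LT1d. PH02Gene11512, described as a tyrosine decarboxylase, moved against them. It measured 1.77, 3.36, and 5.12 FPKM in CK and 0.196, 0.570, and 0.0896 FPKM in LT1d, a log2 fold change of -3.41 ± 0.55 (SE, edgeR adjusted p = 4.78e-05). From LT1d to LT25d it was higher by 3.97 ± 0.55 (adjusted p = 9.01e-06). PH02Gene00731 remained between 0 and 2.21 FPKM.

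Other genes of tryptophan metabolism also differed between LT1d and CK. A list taken by description, without the 6 members, covers the steps from anthranilate to tryptophan, from tryptamine onward, and from tryptophan to auxin. It also holds 5 tyrosine decarboxylases, and its 6 hydroxycinnamoyl- or coumaroyltransferases include genes described as agmatine coumaroyltransferase. PH02Gene15680, with that description, is among the genes called lower in LT1d and higher in RT1d. The list has 52 genes, and 34 of them were tested. In LT1d, 17 were higher and 7 lower than in CK (background 14.2% and 19.8%), with a median log2 fold change of 1.07 against -0.06 over all tested genes. In RT1d, 3 were higher and 8 lower (9.19% and 13.6%), with medians of -0.33 and 0.03. Like the listed genes, the pathway list was set up with earlier results known.

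By step, 4 of 4 tryptophan synthase genes, which make the final product, were higher in LT1d than in CK (median log2 fold change 4.21) and 0 of 4 in RT1d (median -0.07). The most abundant, the alpha chain gene PH02Gene23711, measured 62.9, 65.0, and 77.7 FPKM in CK, 1026, 1337, and 1184 FPKM in LT1d, and 85.9, 52.3, and 97.7 FPKM in RT1d. CK and RT1d overlapped and LT1d stood far above both (LT1d against CK, log2 fold change 4.29 ± 0.49 SE, edgeR adjusted p = 1.45e-06). Of 7 anthranilate synthase genes, which open the branch from chorismate, 3 were higher and 1 lower in LT1d, and 0 higher and 4 lower in RT1d. Among them, PH02Gene39792 measured 108, 176, and 178 FPKM in CK, 665, 728, and 702 FPKM in LT1d, and 74.8, 47.9, and 88.2 FPKM in RT1d, so the groups followed each other without overlap. It was higher in LT1d (2.34 ± 0.39, adjusted p = 7.02e-05) and lower in RT1d (-1.50 ± 0.38, adjusted p = 0.00412). The steps in between were higher in LT1d for 3 of 4 anthranilate phosphoribosyltransferase, 2 of 2 phosphoribosylanthranilate isomerase, and 3 of 4 indole-3-glycerol phosphate synthase genes.

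Downstream of the decarboxylases the genes found by description did not move together. No description named a tryptamine 5-hydroxylase, the enzyme that makes serotonin from tryptamine in rice, which does not show that the gene is absent. The study reports PnT5H genes as upregulated at low temperature in its RNA-seq data, with similar patterns in qRT-PCR. The sources used here do not tie that name to gene identifiers, so this step was not followed. Of 2 serotonin N-acetyltransferase genes, on the way to melatonin, 0 were higher and 1 was lower in LT1d than in CK. The more abundant, PH02Gene05544, measured 28.0, 17.7, and 19.9 FPKM in CK and 14.2, 10.7, and 11.5 FPKM in LT1d, below CK in every library but short of the fold threshold (log2 fold change -0.65 ± 0.16 SE, edgeR adjusted p = 0.00202). Neither of the 2 tested acetylserotonin O-methyltransferase genes, which complete melatonin, was called in LT1d. Later, the more abundant, PH02Gene42942, was higher in LT25d than in CK (2.19 ± 0.83, edgeR adjusted p = 0.0353) and in LT1d (3.04 ± 0.87, adjusted p = 0.00597). The other was not called in either. The study reports PnASMT-2 as upregulated by low temperature, a name that the sources used here do not tie to an identifier. Of 4 tested hydroxycinnamoyl- or coumaroyltransferase genes of amines, 2 were higher and 1 was lower in LT1d than in CK (background 14.2% and 19.8%). The most abundant, PH02Gene48286, is described as a tryptamine hydroxycinnamoyltransferase, which in rice joins tryptamine or serotonin to hydroxycinnamic acids. It measured 1.62, 0.715, and 0.359 FPKM in CK and 8.24, 11.3, and 10.2 FPKM in LT1d. These groups did not overlap (log2 fold change 3.68 ± 0.63, adjusted p = 9.00e-05).

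Some genes described as leading from tryptophan toward auxin instead of tryptamine were lower in LT1d than in CK, and some also in RT1d. Of 3 tested genes described as a tryptophan aminotransferase or a related protein, 2 were lower in LT1d and 2 in RT1d than in CK (background 19.8% and 13.6%). In both groups these 2 were the genes described as tryptophan aminotransferase-related protein 3-like. The gene described as tryptophan aminotransferase 1 was not called in either. PH02Gene27427 spread widely in CK (16.1, 120, and 153 FPKM) and overlapped LT1d (14.004, 35.9, and 25.8 FPKM), although edgeR called it lower (log2 fold change -1.79 ± 0.56 SE, adjusted p = 0.0109). PH02Gene12216, a YUCCA-type indole-3-pyruvate monooxygenase that makes indole-3-acetic acid, measured 46.7, 33.4, and 41.1 FPKM in CK, 6.24, 6.70, and 5.26 FPKM in LT1d, and 54.1, 64.8, and 45.6 FPKM in RT1d. Its LT1d libraries lay below all of CK (-2.54 ± 0.24, adjusted p = 1.78e-07), and CK overlapped RT1d (0.11 ± 0.22, adjusted p = 0.714).

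Over the 4 °C course, 6 of the 34 tested pathway genes were higher and 15 lower in LT25d than in LT1d (background 19.8% and 19.5%), and the 4 tryptophan synthase genes were all among the lower ones (median log2 fold change -3.33). At 25 °C, 12 were higher and 2 lower in RT25d than in RT1d (8.54% and 10.8%), 3 of 4 tryptophan synthase genes among the higher ones. RT25d replicate 3 was again the lowest of its group for PH02Gene23711 (75.7 FPKM) and PH02Gene39792 (54.7 FPKM). The number of pathway genes called in RT25d against RT1d was between 9 and 19 when single libraries were left out.

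The genes with the most similar profiles included other members for 4 of the 6 genes. By Pearson's r of log2(FPKM + 1) over the 21 libraries, PH02Gene31518 came first for PH02Gene42909 (0.983) and for PH02Gene31517 (0.995), and its own 3 closest genes were PH02Gene31517, PH02Gene42909, and PH02Gene26873. Outside the list, the third place went to PH02Gene00361, an oryzain beta chain precursor (a cysteine protease of rice), for PH02Gene42909 (0.964) and to PH02Gene14220, an ADP/ATP carrier, for PH02Gene31517 (0.968). PH02Gene04118, a LEAF RUST 10-like receptor kinase, was closest to PH02Gene26873 (0.978), with PH02Gene16754 at 0.963. For PH02Gene26874 the 3 closest genes were all outside the list, namely PH02Gene39555 (0.938), the cytochrome P450 gene PH02Gene38362 (0.929), and PH02Gene03501 (0.929). PH02Gene42906 had no close partner, with 0.828, 0.824, and 0.817 for PH02Gene11733, PH02Gene48908, and PH02Gene14781.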

How the data were processed

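Culm RNA was sequenced in 21 libraries (7 groups of 3, from the labels). According to the methods of the study, HISAT2 and StringTie placed and assembled the reads on the genome of P. edulis, and the submitters' processing notes name cutadapt, FastQC, and Salmon. The authors deposited FPKM, scaled by transcript length and mapped fragments, and whole-number counts per gene, without normalization. The tool behind the counts and its handling of multi-mapped reads and strand are not stated in the sources used here. The labels describe SMARTer-amplified cDNA.

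Counts were fitted in edgeR 4.0.16 (quasi-likelihood, TMM, R 4.3.3) with all 21 libraries and a mean per group. The 29913 genes with an FPKM of 1 or above in 3 or more libraries were tested, p-values were adjusted by Benjamini-Hochberg over them, and calls needed 0.05 and a fold change of 2. The fit was tested on simulated data. An exact permutation test of 3 against 3 cannot fall below 0.1. Alternatives used limma 3.58.1 on log2(FPKM + 1) and log2(FPKM + 0.1), DESeq2 1.42.0, other filters and scalings, the replicate block, 6 libraries alone, summed groups, and leaving out each library.

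Named genes were all members, other genes of the same description, the most abundant tested gene of each pathway step, the 3 most similar genes per member, and the nearest neighbours on the scaffold. Members and lists were chosen with earlier results of these data known. PH02Gene00731, PH02Gene26876, PH02Gene12603, PH02Gene12604, and the intermediate libraries were singled out after their values were seen. Columns left unmapped numbered 0. No sequences were read.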

Additional observations from a re-analysis of the deposited data

Results flagged for a closer look

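From Day 1 to Day 15, 3 genes moved in opposite directions at the 2 temperatures, with every LT15d library below every LT1d library and every RT15d library above every RT1d library. The share of all tested genes with this pattern was not computed, so it is not shown to be particular to these genes. The log2 change at 4 °C minus that at 25 °C was -3.19 for PH02Gene31517 (-2.66 and 0.52), -3.73 for PH02Gene31518 (-2.73 and 1.00), and -4.87 for PH02Gene26873 (-3.03 and 1.83). The difference was not tested, because it is made of the comparisons that guided the choice of the genes. The rises at 25 °C of PH02Gene31517 (adjusted p = 0.528 in edgeR) and PH02Gene31518 (adjusted p = 0.215) did not pass on their own, and that of PH02Gene26873 (adjusted p = 0.0396) no longer passed when any 1 of the 6 libraries was left out or with either limma fit.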

How the results depend on the processing

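All 72 member results against CK and between days kept their direction under DESeq2, RLE scaling, library-size scaling, no filter, the replicate block, and the fit of 6 libraries alone. A mean FPKM of at least 5 left no value for PH02Gene42906. With the fit of 6 libraries, 4 genes were called in LT25d against LT15d, 2 in RT15d against RT1d, and 0 in RT25d against RT1d, where 5 pathway genes were called. Over all 29913 tested genes, that fit called 10541, 3914, and 5052 in these comparisons. In RT1d against CK, 7 pathway genes were called by limma on log2(FPKM + 1) and 6 with a mean FPKM of at least 5. The totals there were 5250 of 29913 and 3606 of 17314 genes. Both limma fits called 0 members in RT15d against RT1d and 0 in RT25d against RT1d. With pseudocounts of 1 and 0.1, their totals were 2247 and 3466 in the former and 4341 and 5884 in the latter. When the libraries of LT15d, of LT25d, and of RT15d were added up to a single one each, all 72 member results kept their direction. In that fit with fewer samples, fewer members passed in several comparisons, as did fewer of all tested genes. Leaving out LT1d replicate 3 and RT25d replicate 2 gave 0 calls in RT15d against RT1d and 1 in RT25d against RT1d. The totals over all tested genes were 3074 and 5056. limma turned the sign of RT25d against RT15d for PH02Gene26873 (-0.10 with a pseudocount of 1, -0.39 with 0.1), PH02Gene31518 (-0.068 and -0.20), PH02Gene31517 (-0.072 with 0.1), and PH02Gene26874 (-0.027 with 0.1), and the cause was not tested. Of 63 same-numbered pairs of libraries, 0 correlated over 0.1 in their deviations. This cannot exclude that replicate numbers pair the samples, because the replicates of LT15d, LT25d, and RT15d differed too little to show it. With the replicate block, 1 member was called in RT25d against RT1d (5707 of all tested genes), and the call of PH02Gene42906 in LT1d against CK was lost (adjusted p = 0.0509 in edgeR).

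Leaving out single libraries moved the calls over 0 to 0 in RT15d against RT1d, 0 to 5 in RT25d against RT15d, and 0 to 5 in RT25d against RT1d, and the pathway calls over 9 to 19 in the last. It moved the log2 fold change in RT25d against RT15d over -0.18 to 1.28 (PH02Gene31517), -0.25 to 1.24 (PH02Gene26874), -0.62 to 1.04 (PH02Gene26873), and -0.34 to 1.19 (PH02Gene31518), with RT25d replicate 1 giving the low and replicate 3 the high value, and that of PH02Gene42906 in RT15d against RT1d over -0.28 to 0.96. Of the 18 most similar genes, 10 were shared when chosen by Spearman's rho and 7 when chosen over the 7 group means. Library-size scaling shifted the median of all tested genes by up to 0.47 (LT25d against LT1d) between days and by up to 0.33 (RT1d against CK) against CK, without turning the direction of any member. The few counts of PH02Gene42906 in CK limit its fold changes.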
